A study of Mus musculus with 4 samples.

Results

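Kinesins and cytoplasmic dynein are the motors that move cargo along microtubules, and their genes were measured here in ribosome-bound RNA of the mouse rostral pons. The genes were chosen by symbol: the kinesin heavy chain genes (Kif and Kifc), the kinesin light chain genes (Klc), the subunits of cytoplasmic dynein 1 (Dync1, Dynll, Dynlt and Dynlrb) and the dynactin subunits Dctn1 to Dctn6. Of the 31735 gene rows shared by all 4 libraries, 63 met this rule. They comprised 40 kinesin heavy chain genes, 4 light chain genes, 5 genes of the dynein heavy, intermediate and light intermediate chains, 8 dynein light chain genes and 6 dynactin genes. Dynlt1c, a further dynein light chain gene, had no shared row.

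The 4 libraries formed 1 group. Each came from immunopurified RNA of adult, untreated control mice that carry the transgene Cbln2-EGFP/Rpl10a (line NIDA172), in which EGFP is fused to ribosomal protein L10a, so that antibodies against EGFP capture tagged polysomes with their RNA (translating ribosome affinity purification, TRAP). RNA from other cells of the dissected tissue can be carried along, and no unpurified RNA was analysed here, so the values are levels within the captured RNA and enrichment was not measured. Whether the replicates were separate animals or pools is not given, so the spread behind every p-value may be technical. The title was followed for replicate 4, whose description repeats the replicate label of replicate 3 under its own library number. Replicates 1 and 2 carry the adjacent library numbers 1666 and 1667 in their descriptions (called here the first pair), and replicates 3 and 4 the numbers 2469 and 2470 (the second pair). No batch is named in the labels, so this pairing is an inference from the numbers alone.

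Library totals were 21140265, 15556918, 12731825 and 15315942 counts over gene rows in replicates 1 to 4. The unit of level is CPM, or counts of a gene scaled to 1000000 over the library. A single count equals 0.0473 to 0.0785 CPM. A gene with 0 counts may still be present at what 3 counts are worth, which is 0.142 to 0.236 CPM depending on the library. These limits cover counting error only, since read counts are not counts of independent molecules. The row Rn45s, named for the ribosomal RNA precursor, held between 1.61% and 24.2% of the counts of a library and lowers the CPM of every other gene there. Neuronal marker genes summed to 11583 to 25768 CPM, with 8 of 8 at 1 CPM or more in every library. Astrocyte markers summed to 253 to 1575 CPM (5 of 6 at that level), oligodendrocyte markers to 413 to 2375 (5 of 6) and oligodendrocyte precursor markers to 17.8 to 57.5 (4 of 5), none of them at 0 in all 4 libraries. In such bulk RNA, fewer cells of a type and less RNA per cell cannot be told apart.

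Kinesins hold a motor domain that binds ATP and walks along the microtubule, in most families toward its plus end, which in axons points away from the cell body. Cytoplasmic dynein, helped by dynactin and adaptor proteins, moves the other way and carries endosomes, signalling complexes and worn-out organelles back. Another set of kinesins builds and moves the mitotic spindle and is known from dividing cells, while neurons are postmitotic.

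The motor domain is what unites the 40 heavy chain genes. The nucleotide-binding P-loop (Walker A) motif was found in the translated coding sequence of 40 of 40. Of these stretches 3 are shown because their genes stand for the groups compared below: a transport kinesin of the kinesin-1 family, a mitotic kinesin and a kinesin with its motor at the other end of the protein. The 24 bases that encode the P-loop are in capitals, with 18 coding bases on either side, from GENCODE M21 transcripts.
Kif5a: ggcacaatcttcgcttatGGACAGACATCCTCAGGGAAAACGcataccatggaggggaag
Kif11: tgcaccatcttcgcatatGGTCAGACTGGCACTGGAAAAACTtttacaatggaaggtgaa
Kifc2: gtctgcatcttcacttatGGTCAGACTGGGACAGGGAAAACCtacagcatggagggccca
The P-loop began at 8.31% of the coding sequence in Kif5a and at 9.82% in Kif11, close to the start of the protein. In Kifc1, Kifc2 and Kifc3 it began at 60.9%, 61.3% and 63.8%, and in Kif2a, Kif2b and Kif2c, which take microtubules apart instead of walking on them, at 41.9%, 45.3% and 47.6%.

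Around their start sites, the mitotic and transport kinesin genes differed in how many held a short motif. The cell cycle genes homology region (CHR) is known as the element through which repressor complexes keep mitotic genes off outside the later phases of the cell cycle. It was searched as TTTGAA on both strands, which reads TTCAAA on the other strand, in RefSeq promoters of GRCm38.p6 that run from 250 bases before to 50 bases after each start. Stretches of 70 bases that end at the base before the start are shown for 3 mitotic genes that hold the motif there, in capitals, and for 3 of the most abundant kinesin genes that do not.
Kif11: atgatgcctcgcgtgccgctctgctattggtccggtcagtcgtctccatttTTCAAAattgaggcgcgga
Kif15: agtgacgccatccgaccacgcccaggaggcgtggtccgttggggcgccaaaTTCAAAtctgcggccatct
Kif22: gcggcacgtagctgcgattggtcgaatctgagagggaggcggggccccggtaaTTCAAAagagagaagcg
Kif3a: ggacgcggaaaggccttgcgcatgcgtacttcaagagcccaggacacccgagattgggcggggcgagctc
Kif5c: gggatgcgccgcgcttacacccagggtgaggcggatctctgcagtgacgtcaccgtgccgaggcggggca
Kif21a: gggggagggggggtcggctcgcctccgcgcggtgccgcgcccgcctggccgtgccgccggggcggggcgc
These stretches lie at chr19:37376312-37376381 (plus strand), chr9:122951011-122951080 (plus), chr7:127042421-127042490 (minus), chr11:53567299-53567368 (plus), chr2:49619216-49619285 (plus) and chr15:91049952-91050021 (minus), in the order shown. In Kif4, Kif23 and Kifc1 the motif lay just past the start, and the 26 bases around it are shown for that reason.
Kif4: ctgggatcaaTTTGAAacttggcggt
Kif23: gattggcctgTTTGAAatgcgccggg
Kifc1: gaggttgaaaTTCAAAagtggcgggt
They lie at chrX:100626074-100626099 (plus strand), chr9:61946782-61946807 (minus) and chr17:33890617-33890642 (minus).

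The motif was present in 10 of the 12 mitotic kinesin genes with a promoter entry (83.3%) and in 1 of 10 transport kinesin genes (10%). A promoter entry was found for 48 of the 63 motor genes. Over all 27025 genes with an entry the share was 20.2%. The 10 mitotic genes were Kif2c, Kif4, Kif11, Kif14, Kif15, Kif18b, Kif20b, Kif22, Kif23 and Kifc1, and the transport gene was Kif1a. Kif1a held it in the entry at chr1:93082431-93082730, inside the gene, and not in that at chr1:93101825-93102124, at the annotated gene start. A window between base -60 and base 31 from the start was chosen after the positions were seen. In it the motif lay in 8 of 12 mitotic genes (66.7%), 1 of 10 transport genes (10%, Kif1a) and 5.41% of all genes. The motif is rich in A and T, and the median GC content was 60.2% in the mitotic promoters, 68.2% in the transport promoters and 52.7% over all promoters. The part of base composition in the counts was not tested. The CCAAT box, which often stands near such motifs, was searched as CCAAT on both strands and was in 8 of 12 mitotic genes (66.7%), 3 of 10 transport genes (30%) and 41.1% of all genes. A match describes these letters only and shows no binding.

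**Figure D1:**
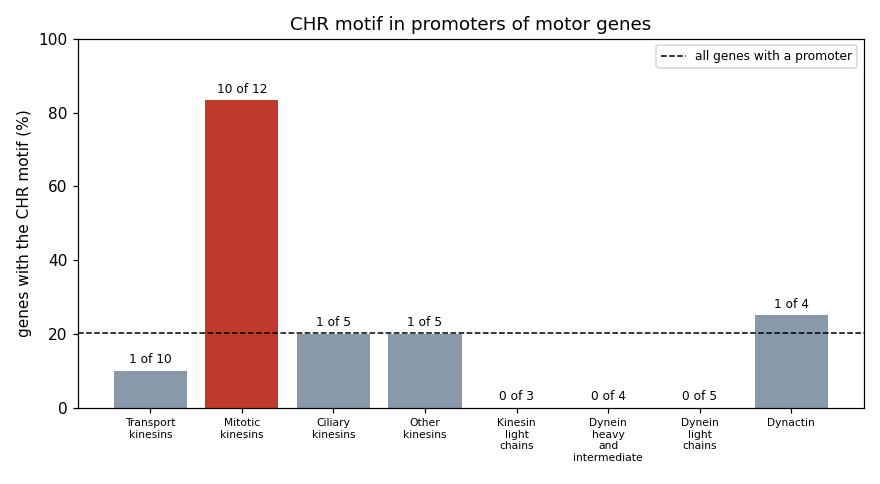
Share of genes with the CHR motif in the promoter window (vertical axis, percent), by group of motor genes, with the number of genes above each bar and the share over all genes with a promoter entry as a dashed line. The mitotic kinesins stand at 10 of 12, and the other groups between 0 and 1 gene each.

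In the captured RNA, the motor genes were for the most part well represented. Of the 63 genes, 37 (58.7%) reached 1 CPM in all 4 libraries, against 10632 of all 31735 rows (33.5%). At 10 CPM in every library stood 31 genes and at 100 CPM 15. The group that reached 1 CPM throughout held 13 of 13 transport kinesins, 5 of 5 dynein heavy, intermediate and light intermediate chain genes and 6 of 6 dynactin genes, but 1 of 13 mitotic and 0 of 6 ciliary kinesins. Kif2b and Kif12 had 0 counts in all 4 libraries. Summed over the 63 genes, the level was 10031, 10606, 9150 and 14555 CPM in replicates 1 to 4, and replicate 4 was the highest.

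Levels of different genes are compared after division of CPM by exon length in kilobases (CPM per kb). On this scale the highest member by mean was the dynein light chain gene Dynlrb1 at 418 ± 223 CPM per kb (SD, n = 4), followed by Kif1a at 224 ± 85.4, Kif5a at 143 ± 66.4 and Kif3a at 126 ± 23.9. Dynlrb1 was first in replicates 1 to 3, but in replicate 4 (209 CPM per kb) it lay below Kif1a (349) and Kif5a (232). By median, the dynein heavy and intermediate chain list stood at 4.39 ± 0.49 (SD, n = 4) on the log2(CPM per kb + 0.5) scale, dynactin at 4.33 ± 0.41 and the transport kinesins at 4.18 ± 0.21. The medians for light chains of kinesin (3.07 ± 1.39) and dynein (3.05 ± 0.69) and for the other kinesins (2.24 ± 0.44) were lower. That of the dynein light chains falls in a gap between 4 abundant genes, Dynlrb1 among them, and 4 scarce ones. Of the scarce genes 3 are Dynlt1 copies with uncertain counts, so this median does not describe the list well. The ciliary (-0.53 ± 0.40) and mitotic kinesins (-0.89 ± 0.10) were at the bottom, beside -0.10 ± 0.21 for all rows with a length. The lists hold different genes, and the first 3 medians lie within each other's SD.

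**Figure D2:**
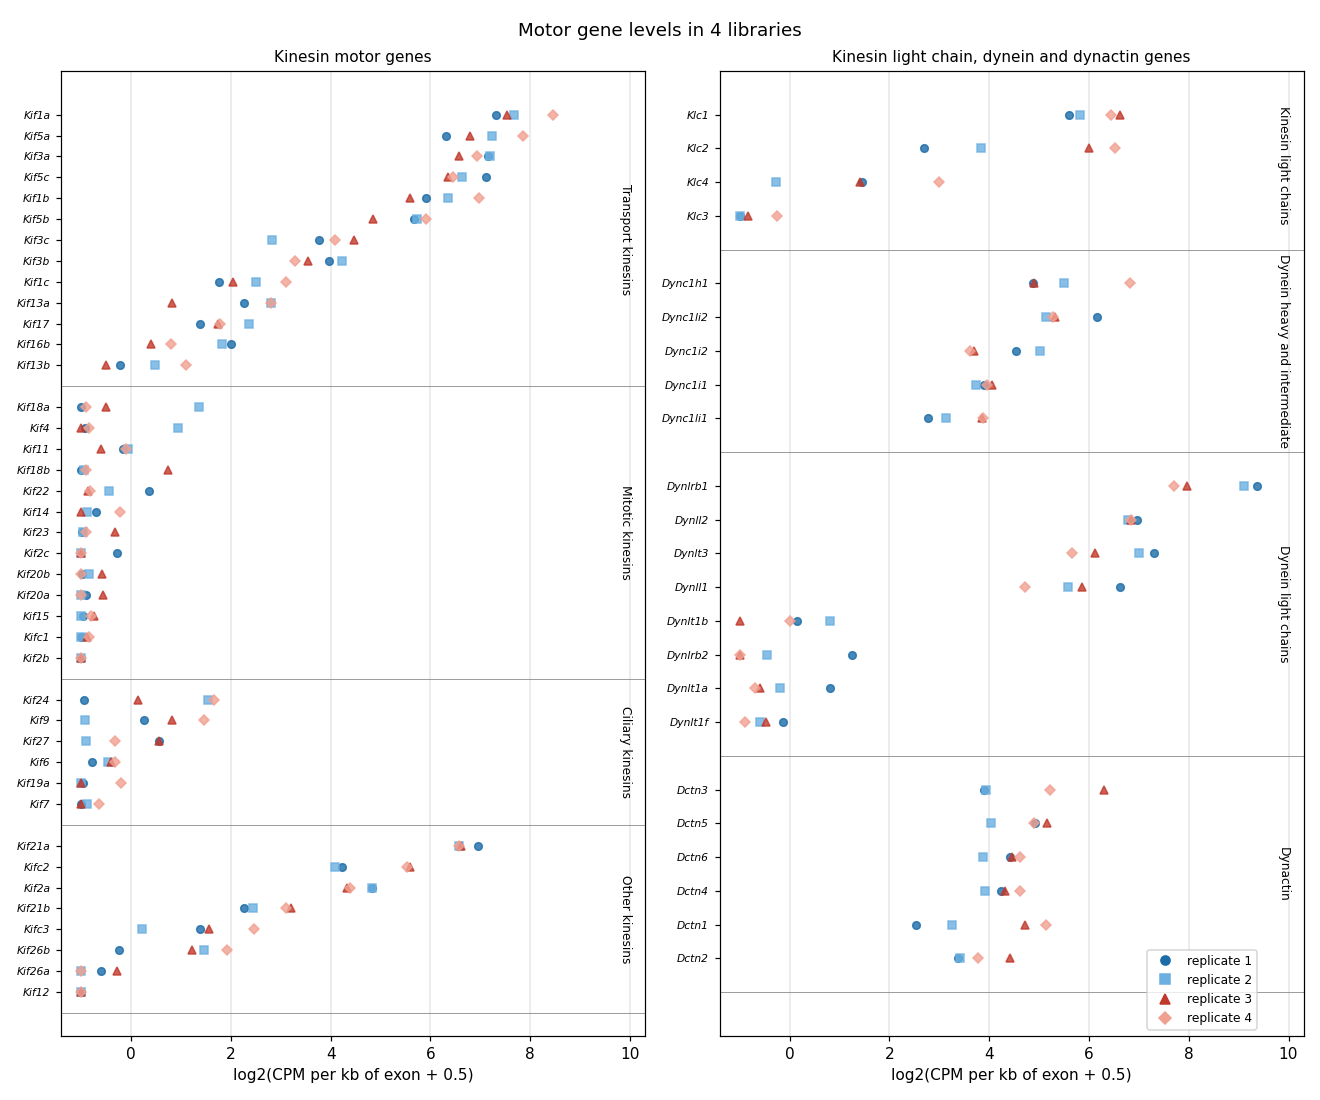
Level of each of the 63 motor genes in the 4 libraries, as log2(CPM per kb of exon + 0.5) on the horizontal axis, grouped by role, with 1 symbol per replicate. The mitotic kinesins lie near the lowest possible value of the scale, while Klc2 and Dctn1 show replicates 3 and 4 apart from 1 and 2.

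Transport kinesins made up 84.5 ± 3.56% (SD, n = 4) of the summed CPM of the 40 kinesin heavy chain genes, and 5 of the 40 genes alone made up most of that sum. Kif1a, Kif1b, Kif5a, Kif5c and Kif21a, which is not on the transport list, together held 78.3 ± 2.82%, and with Kif3a and Kif5b the share was 89.8 ± 2.02%. In CPM per kb, on which genes can be compared, the transport kinesins held 80.8 ± 3.95%, the 5 genes 68.6 ± 3.50% and the 7 genes 87.4 ± 2.61%. The share of the 7 genes lay between 83.5% and 88.8% of kinesin CPM per kb in every library.

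The kinesin-3 family carries synaptic vesicle precursors and dense-core vesicles along axons. Kif1a (chromosome 1, 93015464 to 93101951, minus strand, GRCm38) was the most abundant motor gene by CPM, at 1484, 1890, 1717 and 3255 CPM in replicates 1 to 4. Kif1b, whose products carry synaptic vesicle precursors and mitochondria, stood at 1057, 1422, 841 and 2213 CPM. Both were highest in replicate 4, and their ratio varied less than their levels. Per kb, Kif1a exceeded Kif1b 2.89-fold (log2 1.53 ± 0.28, SD, n = 4), in 4 of 4 libraries. Without the division by length, which is 9330 bases of exon for Kif1a and 17608 for Kif1b, the log2 ratio was 0.62. Kif1b in turn exceeded Kif1c 14.5-fold (log2 3.85 ± 0.25, 4 of 4), with Kif1c at 21.1, 37.7, 26.4 and 58.8 CPM. Of the remaining kinesin-3 genes, Kif13a, which carries recycling endosomes, was at 34.7, 52.3, 10.2 and 52.2 CPM and Kif13b at 4.68, 11.7, 2.75 and 21.4. Both were lowest in replicate 3, and Kif13b stayed below Kif13a in 4 of 4 libraries (log2 ratio -1.95 ± 0.54 per kb). Kif16b, a motor of early endosomes, was at 7.38 to 31.8 CPM. Within the 6 kinesin-3 genes, Kif1a held 71.3 ± 4.28% and Kif1b 24.7 ± 3.12% of CPM per kb.

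Kinesin-1, the conventional kinesin, moves mitochondria, vesicles and RNA granules, and mammals have 3 heavy chain genes for it. Kif5b is known as the broadly expressed form, and Kif5a and Kif5c as the neuronal forms. Kif5a (chromosome 10, 127225696 to 127263348, minus strand) was at 551, 1046, 775 and 1625 CPM, highest in replicate 4. Kif5c (chromosome 2, 49619298 to 49774778, plus strand) was at 979, 706, 580 and 618 CPM, highest in replicate 1. Kif5b was at 402, 418, 225 and 478 CPM, lowest in replicate 3. Both neuronal forms exceeded Kif5b per kb in every library, Kif5a by 2.85-fold (log2 1.51 ± 0.62) and Kif5c by 2.14-fold (1.10 ± 0.46, SD, n = 4). Between the neuronal forms the order was not fixed. Kif5c was higher in replicate 1 and Kif5a in the other 3 libraries, and the mean log2 ratio of 0.42 was within its SD of 0.92. Kif5a made up 29.6%, 49.7%, 50.3% and 61.4% of kinesin-1 CPM per kb, Kif5c 51.5%, 32.8%, 36.9% and 22.8%, and Kif5b 12.8% to 18.9%. Kif5a and Kif5c are identical at 74.0% of aligned coding bases, but 0 of the 50-base exon stretches of either gene occur in another gene. Kif1a exceeded Kif5a 1.61-fold per kb (log2 0.69 ± 0.24, 4 of 4 libraries).

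Kinesin-2 moves cargo in axons and in cilia, and Kif3a pairs with Kif3b or Kif3c in one motor while Kif17 acts as a motor of its own. Kif3a (chromosome 11, 53567379 to 53601967, plus strand) was at 512, 523, 338 and 434 CPM, which is a narrow range. Its partners were far lower, with Kif3b at 84.9, 103, 62.7 and 52.3 CPM and Kif3c at 97.2, 48.6, 159 and 122. Per kb, Kif3a exceeded Kif3b 9.24-fold (log2 3.21 ± 0.30) and Kif3c 9.06-fold (3.18 ± 0.95), each in 4 of 4 libraries. Of the possible 50-base stretches in the exons of Kif3c, 39.6% also occur in the overlapping row 1110002L01Rik, so its counts are uncertain. Kif17, known for carrying NMDA receptor vesicles in dendrites, was at 9.60 to 21.3 CPM. The gene of the third kinesin-2 subunit, Kifap3, lies outside the rule and was at 364, 341, 310 and 324 CPM.

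The other kinesins ranged from the abundant Kif21a to genes near 0. Kif21a, a kinesin-4 that limits microtubule growth and is known from the guidance of eye-muscle nerves, was at 801, 615, 630 and 617 CPM, with replicate 1 apart from the other 3. It exceeded Kif21b (52.7, 60.6, 106 and 99.3 CPM) 15.1-fold per kb (log2 3.92 ± 0.60, 4 of 4 libraries). Kifc2, a minus-end-directed kinesin of dendrites, was at 71.4, 64.7, 188 and 180 CPM, and Kif2a, which trims axon branches by taking microtubules apart, at 178, 178, 126 and 131 CPM. In both genes replicates 3 and 4 stood together, above replicates 1 and 2 in Kifc2 and below them in Kif2a. Kif2a lay far above Kif2c, its mitotic relative (log2 5.41 ± 0.30 per kb), but Kif2c had 0 counts in 3 libraries and the pseudocount sets the size of this ratio. Kif26b was at 5.06, 33.1, 26.7 and 48.4 CPM, Kifc3 at 3.54 to 26.7 and Kif26a at 0 to 2.20. Kif2a, Kifc3 and Kif3c share 19.7% or more of their 50-base stretches with other genes, which for Kif2a is mainly Dimt1.

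Kinesin light chains link kinesin-1 to cargo. Klc1 (chromosome 12, 111758849 to 111807844, plus strand) was at 196, 229, 401 and 354 CPM, and Klc2 (chromosome 19, 5107746 to 5118560, minus strand) at 24.6, 57.3, 262 and 378. In both genes replicates 3 and 4 lay above replicates 1 and 2, and Klc2 spanned 15.3-fold between its lowest and highest library. Its share of light chain CPM per kb was 10.6%, 19.7%, 38.6% and 49.1% in replicates 1 to 4, while that of Klc1 was 85.4%, 79.8%, 60.0% and 46.7%. The ratio of Klc1 to Klc2 was above 1 in 3 of 4 libraries and about as large as its SD (log2 1.36 ± 1.34). Klc4 was at 5.30, 0.771, 5.11 and 17.8 CPM, and Klc3 at 0, 0, 0.157 and 0.914.

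**Figure D3:**
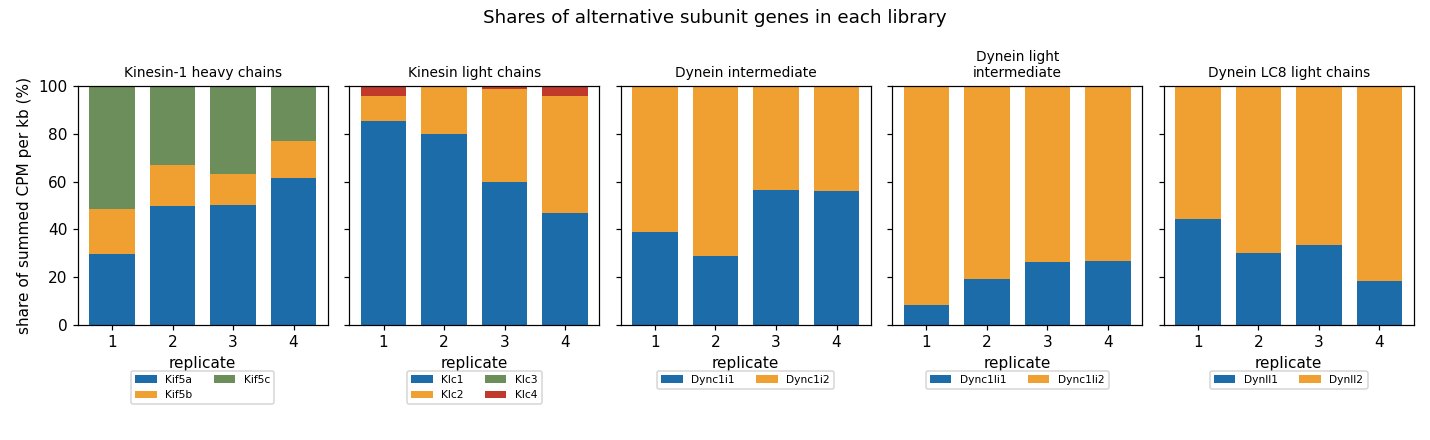
Share of each alternative subunit gene in the summed CPM per kb of its family (vertical axis, percent) in replicates 1 to 4, for 5 families of motor subunits. The share of Klc2 is 10.6% and 19.7% in replicates 1 and 2 and 38.6% and 49.1% in replicates 3 and 4, and that of Kif5b is 12.8% to 18.9%.

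Mitotic kinesins were near the limit of detection. The 13 genes together had 209, 525, 168 and 143 counts in replicates 1 to 4, against 111373, 98097, 60563 and 137129 counts of the 13 transport kinesins. On the log2(CPM per kb + 0.5) scale the transport median lay 4.92, 5.17, 5.197 and 4.98 above the mitotic median, a mean of 5.07 ± 0.14 (SD, n = 4) or 33.5-fold. The difference is bounded by the pseudocount, because the mitotic median lies close to the value of a gene with no counts. With a pseudocount of 0.1 it was 7.01, and with CPM in place of CPM per kb 7.22. By summed CPM, which no pseudocount enters, transport exceeded mitotic kinesins 533-, 187-, 360- and 959-fold. These ratios depend on the lists. Kif2a, a relative of Kif2b and Kif2c, was counted with the other kinesins. At 178, 178, 126 and 131 CPM it lay above the mitotic sum in every library (9.89, 33.7, 13.2 and 9.34 CPM). With Kif2a on the mitotic list the ratios would be far smaller.

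The groups came close at their edges. Of the 169 pairs of 1 transport and 1 mitotic gene, the transport gene was higher per kb in 167, 167, 166 and 169 in replicates 1 to 4. In replicate 1 the lowest transport gene, Kif13b (0.360 CPM per kb), was under the highest mitotic gene, Kif22 (0.781). In replicate 2 Kif13b (0.899) was under Kif18a (2.07), and in replicate 3 Kif13b (0.211) was under Kif18b (1.17). In replicate 4 the groups did not overlap, with Kif16b at 1.24 and Kif11 at 0.438 CPM per kb.

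**Figure D4:**
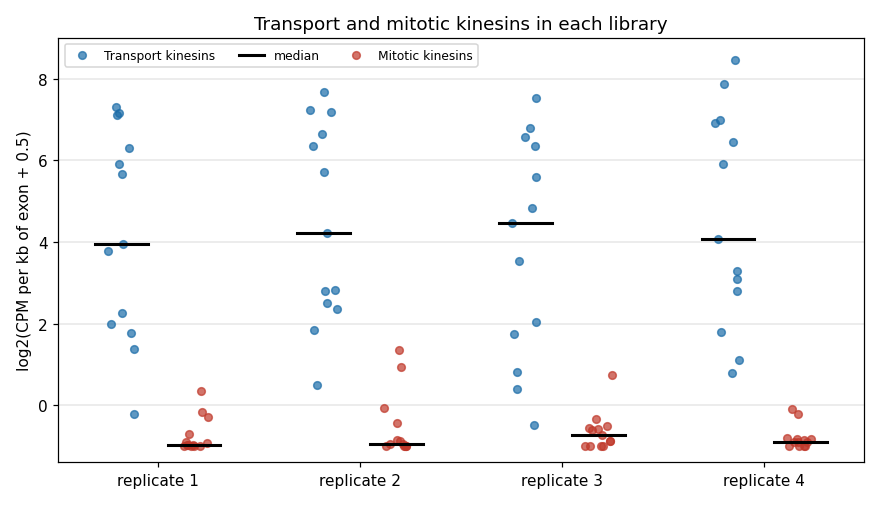
Level of the 13 transport and 13 mitotic kinesin genes in each library, as log2(CPM per kb of exon + 0.5) on the vertical axis, with 1 point per gene and a bar at the median of each group. The medians are 4.92 to 5.197 apart, and 3 libraries have 1 or 2 transport genes below the highest mitotic gene.

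Several mitotic genes were high in 1 library each. Kif11 (chromosome 19), the motor that pushes spindle poles apart, reached 1 CPM throughout, at 2.93, 3.41, 1.18 and 3.26 CPM. Kif18a, which shortens spindle microtubules, was at 0, 20.4, 2.04 and 0.326 CPM, from 0, 317, 26 and 5 counts. Kif4, a chromosome-bound motor, was at 0.142, 7.78, 0 and 0.326 CPM. Both were thus high in replicate 2 only. Kif18b, a relative of Kif18a, was instead high in replicate 3 only, at 0, 0.0643, 4.16 and 0.131 CPM. Kif22, a chromosome-bound motor as well, was at 3.83, 1.16, 0.236 and 0.326 CPM, highest in replicate 1. Kif14, which acts in cytokinesis, was at 1.18, 0.450, 0 and 3.72 CPM, highest in replicate 4. Kif23, a motor of the central spindle, was at 0.0473, 0.129, 2.36 and 0.261 CPM, highest in replicate 3. Kif2c, Kif15, Kif20a, Kif20b and Kifc1 stayed at or under 1.42 CPM in every library, and Kif2b was at 0. Parts of the exons of Kifc1 (39.8% of 50-base stretches, with Kifc5b), Kif20a (25.2%, with Cdc23) and Kif4 (14.5%, with Pdzd11 and Kif4-ps) also occur in other genes.

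Markers of dividing cells were measured beside them. The 15 markers summed to 45.8 to 97.9 CPM, with 60.9 CPM in replicate 2, and 4 of 15 reached 1 CPM throughout, namely Mki67 (29.3, 21.9, 15.8 and 27.4 CPM), Top2a, Cenpe and Pcna. None was at 0 in all 4 libraries, but the mitotic kinase gene Plk1 was at 0, 0, 0 and 0.261 CPM and the cyclin gene Ccnb2 at 0, 0.129, 0 and 0. Replicate 2 was the third of the 4 libraries by these markers. It held the most counts of mitotic kinesins (525), of which 317 were Kif18a and 121 Kif4, and without these genes it held the fewest. Cerebellar granule cell markers summed to 526, 1190, 129 and 226 CPM (6 of 6 at 1 CPM throughout) and were highest in replicate 2. The part of dividing or granule cells in the mitotic kinesin counts was not tested.

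The ciliary kinesins were low and uneven. Kif24, which restrains the growth of cilia, was at 0.189, 19.3, 4.87 and 21.4 CPM, a 113-fold range. Kif9, a motor of motile cilia, was at 2.98, 0.129, 5.42 and 9.66 CPM, and Kif27 at 5.06, 0.193, 5.11 and 1.57. Replicate 2 was thus the lowest library in Kif9 and Kif27, but not in Kif24. Kif6 was at 0.473 to 1.83 CPM, Kif19a at 0 to 1.502, and Kif7, which acts in Hedgehog signalling at the ciliary tip, at 0 to 0.653. Markers of ciliated ependymal cells summed to 32.6, 38.8, 21.4 and 136 CPM, with 1 of 6 (Ccdc39) at 1 CPM throughout. Most of the sum in replicate 4 was 1 gene, Ttr, known from the choroid plexus, at 0, 2.89, 1.41 and 106 CPM. The other markers did not move together, since Foxj1 and Dnah5 were highest in replicate 4 and lowest in replicate 2, while Ccdc39 and Rsph1 were highest in replicate 2. The part of ependymal cells in the ciliary kinesin levels was not tested. Dync2h1, the heavy chain gene of the dynein of cilia and outside the rule, was at 159, 119, 65.1 and 188 CPM.

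Every large subunit of cytoplasmic dynein 1 was detected throughout. The heavy chain, which holds the motor, is encoded by Dync1h1 (chromosome 12, 110601452 to 110666945, plus strand), and was at 452, 704, 459 and 1759 CPM. Replicate 4 was more than double any other library, and Dync1h1 had an SD of 622 around a mean of 843 CPM. Of the intermediate chains, which bind dynactin, Dync1i1, the neuronal form, was at 51.3, 46.0, 57.9 and 53.5 CPM, and Dync1i2, the general form, at 188, 264, 104 and 98.1. Dync1i1 was nearly level while Dync1i2 was lower in replicates 3 and 4. Their order per kb turned between the library pairs. Dync1i1 held 38.8% and 28.8% of the intermediate chain CPM per kb in replicates 1 and 2, and 56.4% and 55.8% in replicates 3 and 4. The mean ratio was within its SD (log2 0.31 ± 0.79 for Dync1i2 over Dync1i1, and 1.52 without the division by length). This turn depends on the exon length used, 3572 bases for Dync1i1 and 8280 for Dync1i2. With the longest transcript (2718 and 4523 bases), as in CPM, Dync1i2 was higher in every library. Of the light intermediate chains, which hold adaptors, Dync1li2 was at 428, 209, 237 and 232 CPM and Dync1li1 at 24.4, 31.9, 53.8 and 54.6. Dync1li2 exceeded Dync1li1 4.196-fold per kb (log2 2.07 ± 0.92), in 4 of 4 libraries.

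The dynein light chains fell into 4 abundant and 4 scarce genes. Dynlrb1 (chromosome 2, 155236533 to 155250277, plus strand), a roadblock-type chain, was at 668, 556, 251 and 211 CPM, and Dynlt3, a Tctex-type chain, at 408, 327, 178 and 130. Both were lower in replicates 3 and 4. Neither passed the edgeR test with all 4 libraries, given below (edgeR adjusted p = 0.0614 for Dynlrb1 and 0.103 for Dynlt3). Of the LC8 chains, Dynll2 was at 338, 301, 312 and 311 CPM and Dynll1 at 384, 185, 224 and 99.9. Dynll2 had the lowest relative spread of the motor genes at 100 CPM or more (SD 15.7 around a mean of 315 CPM). It exceeded Dynll1 per kb in 4 of 4 libraries, but by less than 2 SD (log2 1.16 ± 0.75). In replicate 1 this order depends on the exon length, since Dynll1 was higher there in CPM and with the longest transcript. The second roadblock gene, Dynlrb2, was at 1.04, 0.129, 0 and 0 CPM, so Dynlrb1 exceeded it by a log2 value of 8.84 ± 0.59 that the pseudocount sets.

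The other scarce light chains are copies of Dynlt1 that are nearly identical in sequence. The first 90 coding bases are shown, with bases that differ from Dynlt1a in capitals.
Dynlt1a: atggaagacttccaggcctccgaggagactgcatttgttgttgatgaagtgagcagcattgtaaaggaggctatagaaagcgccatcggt
Dynlt1b: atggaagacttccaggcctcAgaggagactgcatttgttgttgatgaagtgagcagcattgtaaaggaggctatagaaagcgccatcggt
Dynlt1f: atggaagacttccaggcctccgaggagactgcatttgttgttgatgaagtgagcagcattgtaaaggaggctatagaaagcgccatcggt
Dynlt3: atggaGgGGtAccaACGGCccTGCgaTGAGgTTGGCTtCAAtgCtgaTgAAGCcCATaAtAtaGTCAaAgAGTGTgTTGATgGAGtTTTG
Dynlt1b differs from Dynlt1a at 1 of these bases, Dynlt1f at 0 and Dynlt3 at 58. Over the whole coding sequence of 339 bases, Dynlt1a is identical to Dynlt1f and to Dynlt1c and differs from Dynlt1b at 1 base. Of their 50-base exon stretches, 70.5% in Dynlt1a, 83.2% in Dynlt1b and 88.6% in Dynlt1f occur in another gene. Listed counts put Dynlt1a at 5.39, 1.61, 0.707 and 0.522 CPM, Dynlt1f at 0.131 to 1.51 and Dynlt1b at 0 to 0.964. These 3 levels are therefore uncertain, while Dynlt3 is 64.5% identical to Dynlt1a and shares 0 such stretches with any gene. Reads with more than 1 alignment, which HTSeq sets apart, made up 28.6% to 37.2% of a library's total.

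Dynactin joins dynein to cargo and keeps it on the microtubule, and its 6 measured subunit genes were detected throughout. Dctn1 (chromosome 6, 83165920 to 83200117, plus strand), which encodes p150Glued, the subunit that binds microtubules and dynein, was at 34.7, 59.3, 168 and 227 CPM. Dctn3, a shoulder subunit, was at 15.0, 15.4, 81.8 and 38.3 CPM, and Dctn2, dynamitin, at 47.6, 48.7, 99.4 and 63.8. Dctn5 was at 78.6, 42.4, 92.9 and 77.8 CPM, Dctn6 at 60.0, 40.8, 61.3 and 68.4 and Dctn4 at 170 to 278. Both libraries of the second pair stood above both of the first in each of these genes except Dctn5. The share of all genes with such a gap was not counted. Of the dynactin genes only Dctn1 passed the edgeR test between the pairs with all 4 libraries, given below. Per kb neither Dctn1 against Dctn2 (log2 0.17 ± 0.92) nor Dctn3 against Dctn6 (0.49 ± 1.01) went one way in all 4 libraries, and both means turned sign with another gene length (-0.14 and -0.58 with the longest transcript).

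Over the 18 gene pairs compared per kb, 13 went one way in 4 of 4 libraries and 12 of these also exceeded 2 SD. Pairs that share a gene, such as those of Kif5a, Kif5b and Kif5c, are not independent. The pseudocount sets the size of the Dynlrb1 to Dynlrb2 and Kif2a to Kif2c ratios. The count of directions depends on the exon length used. With the longest transcript, Dynll1 was above Dynll2 in replicate 1, while Klc1 and Dync1i2 were above Klc2 and Dync1i1 in every library. The two-sided exact sign-flip permutation test has 16 sign patterns with 4 libraries, so its smallest p is 2 in 16, and adjusted over the 18 pairs 0.173. No pair could therefore pass 0.05, and the 13 pairs are described by their direction and spread.

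Replicates of the second library pair were compared with those of the first to see which motor genes differ between the pairs. Between the pairs, with 2 libraries on each side, edgeR's quasi-likelihood test called 1.27% of all tested genes at an adjusted p under 0.05, and 2 of 49 tested motor genes, both higher in replicates 3 and 4. Klc2 had a mean of 41.0 CPM in replicates 1 and 2 and of 320 CPM in replicates 3 and 4 (log2 change 2.96, SE 0.45, edgeR adjusted p = 0.0127). Dctn1 was at 47.0 and 197 CPM (log2 change 2.07, SE 0.42, edgeR adjusted p = 0.0353). Both calls held in every alternative run, with log2 changes of 2.45 to 3.73 for Klc2 and 1.71 to 2.54 for Dctn1. The 49 tested genes had a median log2 change of 0.40 beside -0.03 over all genes. That median rests on single libraries. It was 0.22 beside 0.19 over all genes without replicate 1, 0.55 beside 0.13 without replicate 2, 0.21 beside -0.11 without replicate 3 and -0.04 beside -0.16 without replicate 4.

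An unadjusted p under 0.05 was reached by 10 of the 49 motor genes, beside 16.8% of all genes. The other 8 did not pass the adjusted test. Their log2 changes were 2.04 for Dctn3, 1.46 for Kifc2, 0.99 for Kif3c and 0.86 for Klc1, and -1.14 for Dync1i2, -1.22 for Dynlt3, -1.38 for Dynlrb1 and -1.68 for Kif16b, with edgeR adjusted p between 0.0614 (Dynlrb1) and 0.281 (Kif3c). DESeq2 called 7 motor genes (Klc2, Dctn1, Dctn3, Kifc2, Dynlrb1, Dynlt3 and Dync1i2), beside 9.93% of all genes, and edgeR with no filter beyond 1 count called 6 of 61 (the same without Dync1i2), beside 4.77% of all genes. Without replicate 2 edgeR called 5 motor genes (Klc2, Dctn1, Dynlrb1, Kif24 and Kif26b), beside 4.29% of all genes, and without replicate 3 it called 6 (Klc2, Dctn1, Dync1h1, Dynll1, Dynlrb1 and Dynlt3), beside 2.74% of all genes. In these fits 1 pair is a lone library, which is assumed to vary like the other pair. The 6 most abundant transport kinesins (Kif1a, Kif1b, Kif3a, Kif5a, Kif5b and Kif5c) passed none of these tests, with edgeR log2 changes from -0.47 for Kif5c to 0.56 for Kif5a. The pairs differ in Rn45s (1.61% to 1.68% against 9.29% to 24.2% of counts) and in granule cell markers (526 to 1190 against 129 to 226 CPM). Neuronal markers summed to 22998 to 25768 CPM in the first pair and 11583 to 12425 CPM in the second. Of the 8 neuronal markers Nefm passed the edgeR test (log2 change -2.56, SE 0.45, edgeR adjusted p = 0.0238). Snap25, which holds most of the sum, did not (log2 change -1.17, edgeR adjusted p = 0.0553). None of the rest passed, with log2 changes of -0.77 for Syn1, -0.49 for Nefl and -0.33 for Stmn2. Rbfox3 (-0.05) and Syt1 (-0.02) were nearly level and Map2 was higher (0.28), so the sum does not describe each marker. The part of these differences in the changes of the motor genes was not tested.

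**Figure D5:**
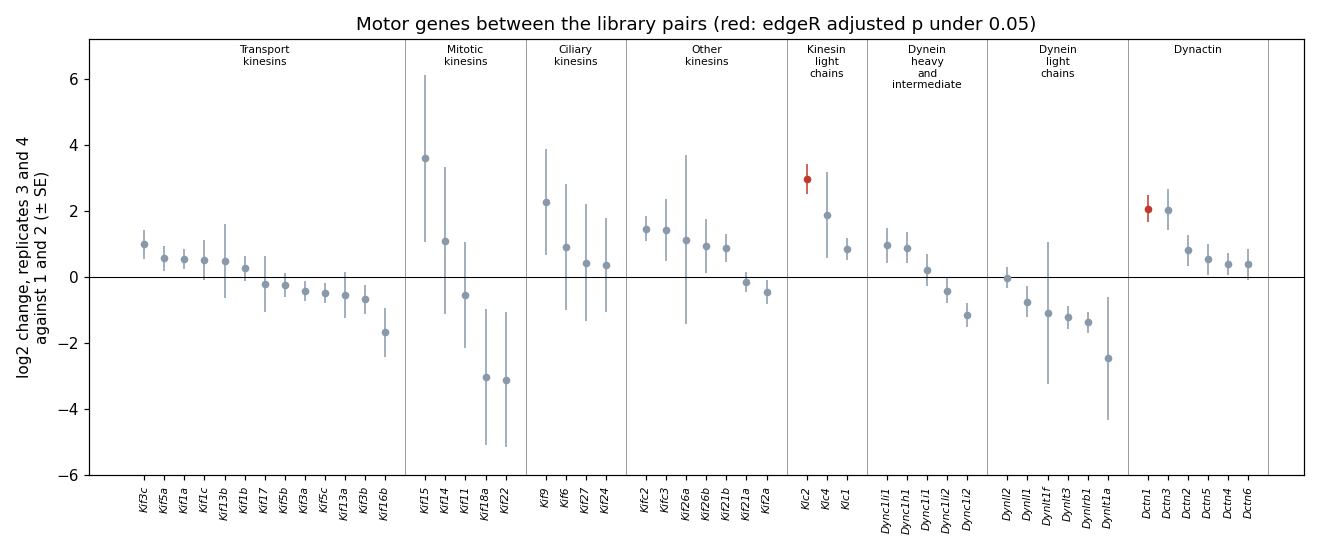
Log2 change of the 49 tested motor genes between replicates 3 and 4 and replicates 1 and 2 (vertical axis, edgeR estimate with its SE as a bar), grouped by role, with genes at an adjusted p under 0.05 in red. Klc2 at 2.96 and Dctn1 at 2.07 are the 2 red points, and the widest bars belong to genes with few counts, such as Kif15 and Kif26a.

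Adaptors and regulators of the motors, a list of 34 genes outside the rule, were for the most part detected. Of 32 with a shared row, 27 reached 1 CPM in all 4 libraries. In CPM, which are not corrected for length, the first by mean was Pafah1b1, which encodes the dynein regulator Lis1, at 743, 619, 491 and 635 CPM. It was followed by Kidins220 (a mean of 413 CPM), Kifap3 (335), Mapk8ip3 (267), whose product JIP3 links kinesin-1 and dynein to vesicles, and the dynein adaptor gene Hook3 (266). At the other end, Spdl1, which brings dynein to kinetochores in mitosis, had a mean of 0.110 CPM, Rilp 0.375 and Ninl 0.996. Between the library pairs 1 of 30 tested adaptor genes passed the edgeR test, beside 1.27% of all genes. It was Actr1b, which encodes a form of the actin-related protein of the dynactin filament, at 85.9, 93.1, 300 and 304 CPM (log2 change 1.77, SE 0.34, edgeR adjusted p = 0.0315). Of the other Actr genes on the list, Actr10 was lower in the second pair (log2 change -1.14, edgeR adjusted p = 0.105). Actr1a changed by 0.30 (edgeR adjusted p = 0.783). DESeq2 called 4 of 30 (Actr1b, Actr10, Arl8a and Kidins220), beside 9.93% of all genes, and edgeR with no filter beyond 1 count called 3 of 32 (the same without Kidins220), beside 4.77%. With a replicate left out, Rhot2 was called beside Actr1b without replicate 1, where 4.6% of all genes were called, and Arl8a without replicate 4, where 2.59% were.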

How the data were processed

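The authors deposited 1 table of raw read counts per gene symbol for each of the 4 libraries. STAR 2.0.0e, HTSeq and the build mm10 are named in the submitters' processing notes. The annotation, strand setting and counting options are not given in the sources used here. Reads of overlapping genes therefore cannot be told apart. The 5 HTSeq summary rows and a row named unknown (0 counts) were left out. CPM were computed over all gene rows of a library. Union exon lengths came from GENCODE M21 (GRCm38), were found for 63 of 63 motor genes and 23129 of 31735 shared rows, and 0.5 CPM per kb was added before log2 was taken. Differences were fitted over all genes with the quasi-likelihood F test of edgeR 4.0.16 after TMM scaling and filterByExpr, at 0.05 after Benjamini-Hochberg adjustment, with DESeq2 1.42.0 as an alternative, and the fit was tested on simulated data. SE is the log2 change divided by the square root of F. Confidence intervals of the subunit shares (Wilson, 95%) were at most 2.07 percentage points to either side and cover counting error only. Shared sequence was measured as the share of 50-base exon stretches found, letter for letter and on either strand, in another gene. Genes that overlap a motor gene were left in, so such a share need not mean a second copy. The members and lists were chosen with earlier results of these data known. Values per library are given for the 3 highest genes of each role, genes of a compared pair, genes called between the library pairs and genes with a range of 10-fold or more and a mean of at least 1 CPM.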

Additional observations from a re-analysis of the deposited data

Results flagged for a closer look

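In 5 of 67 values checked (the CPM of 48 genes, 18 pair ratios and the excess of transport over mitotic kinesins), 1 of the 4 libraries stood far from the others, with a gap to its nearest neighbour above Dixon's 95% critical ratio for 4 samples. Chance flags about 1 in 20. Dync1li2 was high in replicate 1 (427.62 CPM, ratio 0.872), and so was Kif21a (800.747 CPM, 0.917). Kif18a (20.3768 CPM, 0.900) and Kif4 (7.77789 CPM, 0.958) were high in replicate 2, and Kif18b (4.1628 CPM, 0.969) in replicate 3. The last 3 are mitotic kinesins that had at most 26 counts in any other library.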

How the results depend on the processing

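The excess of transport over mitotic kinesins (log2 5.07) was 7.01 with a pseudocount of 0.1, 4.16 with a pseudocount of 1 and 7.22 with CPM without length. With each replicate left out it was 5.03 to 5.12, and under the 6 other alternatives 4.94 to 5.19. The count of genes at 1 CPM in all libraries (37) was 36 to 40 under its alternatives. Between the library pairs, edgeR called 2 of 49 motor genes, DESeq2 7 of 49 and edgeR with no filter 6 of 61. Of all genes these runs called 1.27%, 9.93% and 4.77%, so the calls rose over all genes as well. With a replicate left out, the lone library of a pair is assumed to vary like the others. The counts of those fits are therefore not set beside these. Of 126 alternatives for the pair ratios, 108 kept their sign and moved by less than 1 SD, 13 kept it and moved further, and 5 turned sign. The log2 ratio of Dync1i2 to Dync1i1 was -0.0151 without replicate 2 and up to 0.53 with another replicate left out. That of Dctn1 to Dctn2 was -0.142 with the longest transcript, and -0.227 (without replicate 4) to 0.505 with 1 replicate left out. That of Dctn3 to Dctn6 was -0.937 with CPM without length and -0.581 with the longest transcript. The cause was not tested. Depth limits the mitotic and ciliary kinesins, most of which had few counts. No paired analysis was possible because the samples form 1 group.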
